A study of Homo sapiens with 2 samples.

Results

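The genes described here, 10 of 21225 in the tables, make glycerol 3-phosphate, build triglyceride from it, coat the droplets in which triglyceride is stored and break it down again: GK, GPAM, GPD2, AGPAT2, LPIN1, LPIN2, DGAT1, DGAT2, PLIN2 and PNPLA2. They were chosen by name for their place in this pathway, with the FPKM differences of the same libraries already known, those of GK and GPAM among them. Their differences are therefore given as a description. All 10 names were found in both tables.

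RNA-seq was done on Huh7, a human hepatoma cell line, with cells transfected with an shRNA against E2F6 (1 library) and cells with a control shRNA (1 library). E2F6 is a transcriptional repressor of the E2F family. The shRNA sequence, the time after transfection and whether the cells were a selected pool or a clone are not stated in the labels. With 1 library a group no test between conditions was possible, and every difference given is between these libraries.

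Levels are in FPKM, fragments scaled to transcript length and to the size of the library, so that levels of different genes can be set side by side. Differences are on the log2(FPKM + 1) scale, E2F6 shRNA minus control shRNA, which makes the difference of a gene with low values smaller than its log2 ratio. A gene was called lower or higher where this difference reached 1 in size at a mean of at least 1 FPKM. Ratios are of the FPKM values themselves and carry a 95% counting interval, an exact conditional binomial interval on estimated fragments. It covers counting error only and is approximate for genes with several transcripts, which all the genes described here have. In bulk RNA, fewer cells with a transcript and less of it per cell cannot be told apart.

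Read as FPKM, the values imply library sizes of 14724836 fragments for E2F6 shRNA and 17139210 for control shRNA. E2F6 was at 0.997 FPKM in the E2F6 shRNA library and at 2.54 FPKM in the control shRNA library, 39.3% of the control (25.8 to 59.3%). At these low levels its difference on the log2(FPKM + 1) scale was -0.82, short of the rule. Of 8 hepatocyte and hepatoma markers, all 8 were at 1 FPKM or more in both libraries, and 2 of them, ALB and APOB, were lower by the rule. Their summed levels were 2303 FPKM in E2F6 shRNA and 3253 FPKM in control shRNA. AFP was the largest part, at 1064 FPKM in E2F6 shRNA and 1721 FPKM in control shRNA. APOA1 and TTR were above their control level and the others below it. Of 8 adipocyte markers 4 were analysed here, none of them at 0 in both libraries, and their summed level was 1.91 FPKM in E2F6 shRNA and 2.81 FPKM in control shRNA, most of it CIDEC. For fibroblasts and stellate cells, 4 of 5 markers summed to 59.4 FPKM in E2F6 shRNA and 39.2 FPKM in control shRNA. Of these, COL1A1 and COL1A2 were above their control level and LUM and PDGFRB below it. For macrophages 2 of 5 summed to 0.372 FPKM in E2F6 shRNA and 0.464 FPKM in control shRNA. The part of any of these in the differences was not tested.

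Triglyceride is built on a glycerol backbone. Glycerol kinase phosphorylates free glycerol, and glycerol 3-phosphate also comes from glycolysis. Acyl chains are then added in turn, with removal of the phosphate before the last one, and the product is packed into droplets or loaded onto lipoproteins. The liver has high glycerol kinase activity and uses glycerol released by adipose tissue, and hepatocytes store surplus fatty acids as droplets coated with perilipin 2.

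By the rule of size 2 of the 10 genes were lower in the E2F6 shRNA library, GK and GPAM, 0 were higher and 8 did not pass. Of all 11574 genes that reached the minimum of 1 FPKM, 2.06% were lower and 1.17% higher. Since GK and GPAM were known to be low when the set was drawn up, nothing is read from that contrast. The difference was below 0 for 8 genes and above 0 for DGAT1 and DGAT2, with a median of -0.40, beside a median of -0.0021 over all 11574 genes, of which 50.3% were below 0. The counting interval of the ratio lay below 1 for 7 genes, above 1 for DGAT1, and included 1 for LPIN1 and DGAT2. Over all 11574 genes the interval lay off 1 for 44.2%, so an interval that leaves out 1 is common at this depth.

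**Figure D1:**
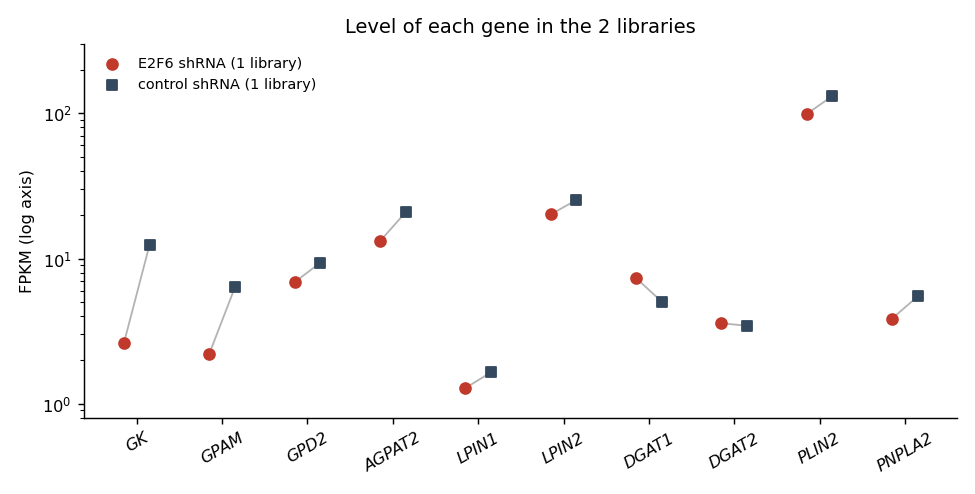
Level of each gene in FPKM on a log axis, with circles for the E2F6 shRNA library and squares for the control shRNA library (1 library a group, so no error bars). GK and GPAM have the steepest lines, and PLIN2 stands above the other genes in both libraries.

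The first group supplies glycerol 3-phosphate. GK (ENSG00000198814, chromosome X) encodes glycerol kinase, which phosphorylates glycerol. It was at 2.62 FPKM in the E2F6 shRNA library and at 12.4 FPKM in the control shRNA library, which is 4.73-fold lower (3.61 to 6.27) on an estimated 64 and 352 fragments. The difference of -1.89 was the lowest of the 10 genes and stood at rank 20 from the lowest among all 11574 genes. In order of level among the 10 genes, GK was at place 8 in E2F6 shRNA and at place 4 in control shRNA.

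GPD2 (ENSG00000115159, chromosome 2) encodes the mitochondrial glycerol 3-phosphate dehydrogenase, which takes electrons from glycerol 3-phosphate to the respiratory chain and so uses it up. It was at 6.87 FPKM in E2F6 shRNA and at 9.35 FPKM in control shRNA, a ratio of 0.735 (0.603 to 0.893) and a difference of -0.39, not past the rule. The level of GK was 0.382 times that of GPD2 in the E2F6 shRNA library and 1.33 times in the control shRNA library, so their order was turned round. GK5, a second glycerol kinase gene, was at 1.10 FPKM in E2F6 shRNA and 1.46 FPKM in control shRNA (ratio 0.750, 0.471 to 1.17), and GK made up 70.5% of the summed FPKM of GK and GK5 in E2F6 shRNA and 89.4% in control shRNA.

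Both non-coding transcripts that are annotated within introns of GK on the same strand, and share no exon base with it, had low values in both libraries. GK-IT1 was at 0.171 FPKM in E2F6 shRNA and 0.735 FPKM in control shRNA, on about 1 and 5 fragments, and its ratio interval of 0.0049 to 2.08 includes 1. RP11-242C19.2 (ENSG00000241886) was at 0.242 FPKM in E2F6 shRNA and 1.56 FPKM in control shRNA, on about 2 and 15 fragments, with a ratio of 0.155 (0.0172 to 0.667). The mean of RP11-242C19.2 was under 1 FPKM, so the rule does not apply to it. GK3P, a near copy of GK, was not analysed here, and the division of reads between it and GK is uncertain.

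The second group adds the first acyl chains. GPAM (ENSG00000119927, chromosome 10) encodes the mitochondrial glycerol 3-phosphate acyltransferase, which adds the first acyl chain to glycerol 3-phosphate to make lysophosphatidic acid. It was at 2.21 FPKM in E2F6 shRNA and at 6.33 FPKM in control shRNA, 2.87-fold lower (2.30 to 3.60) on an estimated 105 and 350 fragments, with a difference of -1.19. On the log2(FPKM + 1) scale of the rule, the counting interval of GPAM ran from -1.41 to -0.96, so it reaches short of 1 in size. AGPAT6, now named GPAT4, encodes an enzyme of the endoplasmic reticulum for the same reaction and was at 9.68 FPKM in E2F6 shRNA and 8.31 FPKM in control shRNA (ratio 1.16, 0.946 to 1.43). GPAM made up 18.1% of the summed FPKM of the acyltransferases for this step in E2F6 shRNA and 41.0% in control shRNA, and AGPAT6 79.2% in E2F6 shRNA and 53.9% in control shRNA. The summed level was 12.2 FPKM in E2F6 shRNA and 15.4 FPKM in control shRNA. AGPAT9, now named GPAT3, was at 0.115 FPKM in E2F6 shRNA and 0.769 FPKM in control shRNA (ratio 0.149, 0.0153 to 0.577), below the minimum for the rule.

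AGPAT2 (ENSG00000169692, chromosome 9) encodes the acyltransferase that turns lysophosphatidic acid into phosphatidic acid. Its loss causes congenital generalized lipodystrophy in humans. It was at 13.1 FPKM in E2F6 shRNA and at 20.8 FPKM in control shRNA, a ratio of 0.631 (0.534 to 0.745) and a difference of -0.63, not past the rule. AGPAT1, which encodes an enzyme for the same step, was at 17.3 FPKM in E2F6 shRNA and 15.3 FPKM in control shRNA (ratio 1.13, 1.0004 to 1.28). AGPAT2 was thus below AGPAT1 in the E2F6 shRNA library and above it in the control shRNA library. Its share of the summed FPKM of AGPAT1 to AGPAT5 was 35.1% in E2F6 shRNA and 46.8% in control shRNA. AGPAT2 was at 5.96 times the level of GPAM in E2F6 shRNA and 3.29 times in control shRNA.

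The promoters of the genes past the rule, GK and GPAM, are shown because E2F6 binds DNA and the tables hold only transcript levels. The sequences are the 250 bases before the RefSeq start of each gene on build GRCh38.p14, 5′ to 3′ on the strand of the gene, at chrX:30653173-30653422 on the plus strand for GK and chr10:112183766-112184015 on the minus strand for GPAM. Capitals mark the GC box GGGCGG and the CCAAT box CCAAT on either strand.
GK: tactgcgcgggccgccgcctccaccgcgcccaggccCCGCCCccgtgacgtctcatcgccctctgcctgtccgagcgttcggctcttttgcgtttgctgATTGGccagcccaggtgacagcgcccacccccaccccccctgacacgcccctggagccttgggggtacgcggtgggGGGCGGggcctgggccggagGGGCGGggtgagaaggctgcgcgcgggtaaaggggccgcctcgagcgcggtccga
GPAM: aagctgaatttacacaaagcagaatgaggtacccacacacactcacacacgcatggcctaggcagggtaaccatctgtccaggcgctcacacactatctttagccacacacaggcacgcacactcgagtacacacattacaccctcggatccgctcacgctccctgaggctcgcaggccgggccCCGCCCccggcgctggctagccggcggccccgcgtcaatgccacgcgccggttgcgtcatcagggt

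GK had 3 GC boxes and 1 CCAAT box in these bases and GPAM 1 GC box. The E2F site letters GCGGGAA, searched on both strands, were in neither. Promoters of 8 of the 10 genes were held in the RefSeq table, 12 in all, since some genes have more than 1 start. GCGGGAA was in promoters of AGPAT2 and GPD2, the E-box CACGTG in those of PLIN2 and LPIN2, and the sterol element TCACNCCAC in that of PNPLA2. The C/EBP site TTGCNNAA was in none of the 12. The GC box was in 9 of the 12 promoters and in at least 1 of each of the 8 genes. The CCAAT box was in 1 of the 12, that of GK. Both motifs were added after the promoters had been seen. GC content of the 12 ran from 34.8% to 83.6%, beside a median of 58.0% over all promoters. Among all 35116 promoters of the same length the shares were 5.52% for GCGGGAA, 6.34% for CACGTG, 0.883% for TCACNCCAC, 9.05% for TTGCNNAA, 42.6% for GGGCGG and 32.0% for CCAAT. The letters GCGGGAA and GGGCGG can overlap. A match is a run of letters and not a measured binding site, and the absence of one says only that these letters are not in this window.

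**Figure D2:**
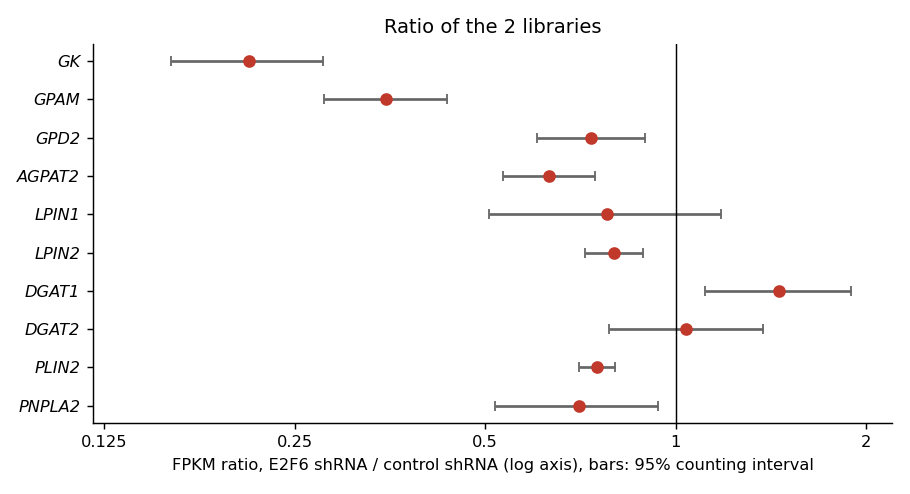
FPKM ratio of the E2F6 shRNA library to the control shRNA library on a log axis, with points for the ratio and bars for the 95% counting interval. The intervals of GK and GPAM lie below 0.5, and those of LPIN1 and DGAT2 include 1.

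The third group removes the phosphate. The lipins are phosphatidic acid phosphatases that make diacylglycerol, and lipin 1 also acts in the nucleus as a coactivator of fatty acid oxidation genes. LPIN2 (ENSG00000101577, chromosome 18), the main lipin gene of liver, was at 20.2 FPKM in E2F6 shRNA and at 25.2 FPKM in control shRNA, a ratio of 0.799 (0.718 to 0.888) and a difference of -0.31. LPIN1 (ENSG00000134324, chromosome 2) was at 1.28 FPKM in E2F6 shRNA and at 1.65 FPKM in control shRNA, the lowest level of the 10 genes in both libraries, with a ratio of 0.779 (0.507 to 1.18) on an estimated 40 and 60 fragments. Neither passed the rule. Antisense genes share 0.9696% of the exon bases of LPIN1 and 1.69% of those of LPIN2. They held few reads: AC012456.4 was listed at 0 in E2F6 shRNA and at 0.520 FPKM in control shRNA, and RP11-737O24.5 was at 0.283 FPKM in E2F6 shRNA and 0.162 FPKM in control shRNA. LPIN2 made up 88.0% of the summed FPKM of LPIN1, LPIN2 and LPIN3 in E2F6 shRNA and 88.5% in control shRNA, and it was at 15.7 times the level of LPIN1 in E2F6 shRNA and 15.3 times in control shRNA. The mix of lipin transcripts was thus close in the libraries, while the mix of the acyltransferase transcripts was not. These shares carry no interval and no correction for transcript GC content. That was 48.2% for LPIN1 and 49.1% for LPIN2, and 41.8% for GPAM, 52.2% for AGPAT6 and 65.8% for AGPAT2. The part of GC content in this contrast was not tested.

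The fourth group adds the last acyl chain. DGAT1 and DGAT2 encode unrelated enzymes of the endoplasmic reticulum that turn diacylglycerol into triglyceride. DGAT1 (ENSG00000185000) was at 7.34 FPKM in E2F6 shRNA and at 5.04 FPKM in control shRNA, a ratio of 1.45 (1.11 to 1.89) and a difference of 0.46, not past the rule. It was the only one of the 10 genes whose interval lay above 1. DGAT1 shares 3.36% of its exon bases with HSF1 on the other strand, which was at 4.61 FPKM in E2F6 shRNA and 3.40 FPKM in control shRNA (ratio 1.35, 0.967 to 1.86). A non-coding gene on its own strand, GS1-393G12.12 (ENSG00000254690), shares 10.7% of them and was listed at 0 in E2F6 shRNA and at 0.263 FPKM in control shRNA, on about 2 fragments. No source used here says whether reads were counted by strand, so reads from the shared bases cannot be told apart.

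DGAT2 (ENSG00000062282, chromosome 11) was at 3.58 FPKM in E2F6 shRNA and at 3.45 FPKM in control shRNA, a ratio of 1.04 (0.784 to 1.37) and a difference of 0.04. This was the smallest difference of the 10 genes, and the interval allows a ratio on either side of 1. DGAT1 made up 67.2% of the summed FPKM of DGAT1 and DGAT2 in E2F6 shRNA and 59.4% in control shRNA. Their summed level was 10.9 FPKM in E2F6 shRNA and 8.49 FPKM in control shRNA, the only one of the 5 steps plotted by gene with a higher sum in the E2F6 shRNA library.

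**Figure D3:**
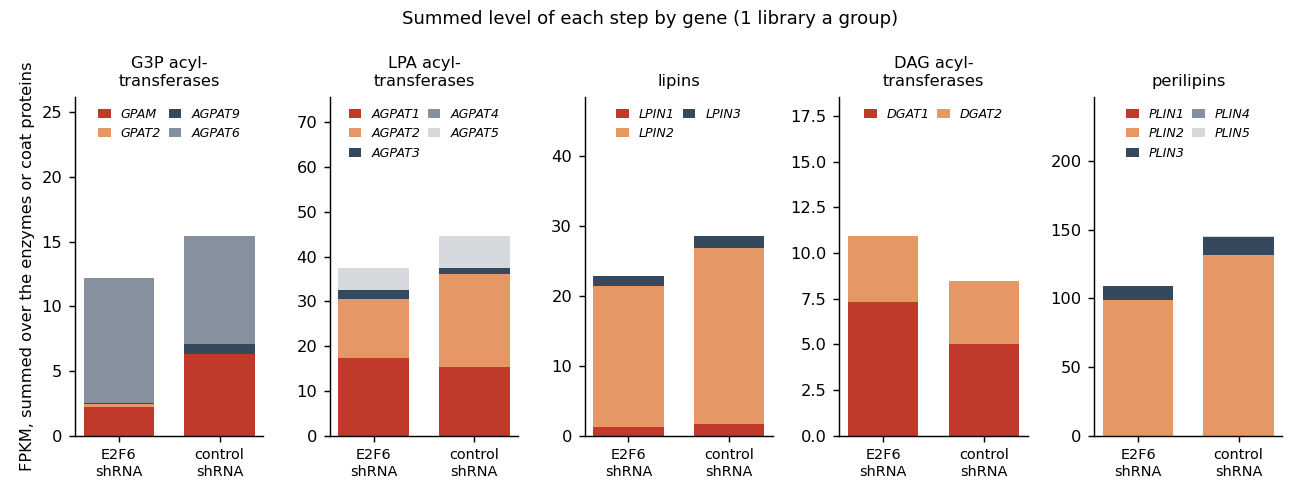
Summed FPKM of the genes for 5 steps of the pathway in the E2F6 shRNA library (left bar) and the control shRNA library (right bar), stacked by gene on linear axes that start at 0. G3P is glycerol 3-phosphate, LPA lysophosphatidic acid and DAG diacylglycerol. GPAM takes 18.1% of its bar in E2F6 shRNA and 41.0% in control shRNA, while LPIN2 and PLIN2 take nearly equal shares of theirs.

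The last group coats the droplet and opens it again. PLIN2 (ENSG00000147872, chromosome 9) encodes perilipin 2, the common droplet coat protein of hepatocytes. It was at 98.9 FPKM in E2F6 shRNA and at 131.6 FPKM in control shRNA, the highest level of the 10 genes in both, and most of their summed FPKM at 61.8% in E2F6 shRNA and 59.4% in control shRNA. The ratio was 0.752 (0.704 to 0.802) on an estimated 1490 and 2308 fragments, with a difference of -0.41 that did not pass the rule. PLIN2 made up 90.5% of the summed FPKM of the perilipin genes in E2F6 shRNA and 90.6% in control shRNA. PLIN3, the other perilipin gene above 1 FPKM, was at 9.97 FPKM in E2F6 shRNA and 12.8 FPKM in control shRNA (ratio 0.778, 0.648 to 0.934).

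PNPLA2 (ENSG00000177666, chromosome 11) encodes adipose triglyceride lipase, which takes the first acyl chain off stored triglyceride. It was at 3.86 FPKM in E2F6 shRNA and at 5.49 FPKM in control shRNA, a ratio of 0.704 (0.517 to 0.937) and a difference of -0.42, not past the rule. The coat gene PLIN2 was at 25.6 times the level of PNPLA2 in E2F6 shRNA and 23.98 times in control shRNA. ABHD5, which encodes the activator of this lipase, was at 7.81 FPKM in E2F6 shRNA and 8.21 FPKM in control shRNA (ratio 0.951, 0.789 to 1.15), and the monoglyceride lipase gene MGLL was at 18.1 FPKM in E2F6 shRNA and 20.1 FPKM in control shRNA (ratio 0.899, 0.804 to 1.01).

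The order of levels among the 10 genes was PLIN2, LPIN2, AGPAT2, DGAT1, GPD2, PNPLA2, DGAT2, GK, GPAM and LPIN1 in the E2F6 shRNA library, and PLIN2, LPIN2, AGPAT2, GK, GPD2, GPAM, PNPLA2, DGAT1, DGAT2 and LPIN1 in the control shRNA library. The ends of the order were the same in both libraries, and GK, GPAM and DGAT1 changed places most. The spread between replicate libraries is unknown, so neighbours in this order cannot be ranked beyond counting error.

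Around these genes, 10 lists of the wider pathway held 99 genes, of which 94 were measured and 70 had a mean of at least 1 FPKM. Of these 70, the rule called 6 lower and 0 higher and left 64, with a median difference of -0.16. Without the 10 genes above, 4 of 60 were lower and 0 higher, with a median of -0.12, beside 2.06% lower and 1.17% higher of all 11574 genes. These 4 were CEBPA, APOB, ACSL3 and MOGAT3. The lists were also drawn up with results of these data known, so nothing is read from that contrast. With a correction for transcript GC content the difference of ACSL3, at 40.2% GC, came to -0.89, short of the rule, against -1.22 without it, while those of CEBPA, APOB and MOGAT3 still passed.

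MOGAT3, which encodes an acyltransferase that makes diacylglycerol from monoacylglycerol, was at 0.622 FPKM in E2F6 shRNA and at 2.62 FPKM in control shRNA, a ratio of 0.238 (0.108 to 0.441) on about 11 and 56 fragments. In the acyl-CoA supply list 1 of 6 genes was lower and 5 were below 0, with a median of -0.58. Of all 11574 genes 50.3% were below 0. The long-chain acyl-CoA synthetase gene ACSL3, whose product sits on forming droplets, was at 13.5 FPKM in E2F6 shRNA and 32.6 FPKM in control shRNA (ratio 0.413, 0.356 to 0.476). ACSL4, of the same family, was at 24.6 FPKM in E2F6 shRNA and 48.5 FPKM in control shRNA. Its difference was -0.95, just short of the rule, and came to -0.56 with the correction for transcript GC content. The fatty acid transport gene SLC27A4 had the highest difference of that list, at 8.65 FPKM in E2F6 shRNA and 6.84 FPKM in control shRNA.

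Of 3 genes for the triglyceride loading of lipoproteins 1 was lower, APOB, the structural protein of very low density lipoprotein, at 138 FPKM in E2F6 shRNA and 318 FPKM in control shRNA. MTTP, which encodes the transfer protein that lipidates it, was at 22.8 FPKM in E2F6 shRNA and 22.7 FPKM in control shRNA (ratio 1.01, 0.893 to 1.14). Of 8 regulators of lipid storage 1 was lower, CEBPA, at 67.8 FPKM in E2F6 shRNA and 202 FPKM in control shRNA. SREBF1, the main lipogenic regulator of that list, was at 4.37 FPKM in E2F6 shRNA and 5.74 FPKM in control shRNA (ratio 0.761, 0.578 to 0.9997), and PPARG was at 16.1 FPKM in E2F6 shRNA and 13.6 FPKM in control shRNA (ratio 1.19, 1.02 to 1.38).

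In the list of droplet coat and formation genes, 0 of 13 passed the rule and 12 had a difference below 0, with a median of -0.22. Over all 11574 genes 50.3% were below 0, and the median size of the difference in either direction was 0.25. The list was drawn up with results of these data known. METTL7A, a droplet protein gene, was lowest at 1.54 FPKM in E2F6 shRNA and 3.47 FPKM in control shRNA, and AUP1, a droplet protein with a role in protein degradation, was highest at 24.6 FPKM in E2F6 shRNA and 18.6 FPKM in control shRNA. FITM2, which encodes a protein of droplet budding, was at 4.86 FPKM in E2F6 shRNA and 7.40 FPKM in control shRNA. In the phosphatidic acid phosphatase list 0 of 7 genes passed, with PPAP2A, a phosphatase gene now named PLPP1, highest at 6.96 FPKM in E2F6 shRNA and 4.70 FPKM in control shRNA and LPIN2 lowest.

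In the lipolysis list 0 of 6 genes passed, with a median of -0.039. ABHD6, a monoacylglycerol lipase gene, was highest at 1.73 FPKM in E2F6 shRNA and 1.24 FPKM in control shRNA, and PNPLA2 was lowest. Of 13 genes of the branch to phospholipids 0 passed, 7 were below 0 and the median was -0.0089. In that list CDS1, which encodes a CDP-diacylglycerol synthase, was highest at 2.52 FPKM in E2F6 shRNA and 1.81 FPKM in control shRNA. The ethanolamine kinase gene ETNK1 was lowest at 8.80 FPKM in E2F6 shRNA and 16.1 FPKM in control shRNA. Its difference of -0.80 came to -0.41 with the correction for transcript GC content, where CHKA was lowest at -0.55.

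In the list of glycerol entry and glycerol 3-phosphate, 8 of 10 genes were measured and 5 had a mean of at least 1 FPKM. Of these 5, 1 was lower by the rule, GK, beside 2.06% of all 11574 genes. The difference was below 0 for 4 of the 5, with a median of -0.23, beside 50.3% below 0 over all genes. AQP3, which encodes a channel for water and glycerol, was chosen after its values were seen. It was at 0.325 FPKM in E2F6 shRNA and 1.53 FPKM in control shRNA (ratio 0.212, 0.0705 to 0.495, on about 6 and 34 fragments), with a mean below 1 FPKM, so that the rule does not apply to it. PGP, which encodes a phosphatase that acts on glycerol 3-phosphate, had the highest difference of its list, at 27.6 FPKM in E2F6 shRNA and 20.02 FPKM in control shRNA (ratio 1.38, 1.24 to 1.54).

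**Figure D4:**
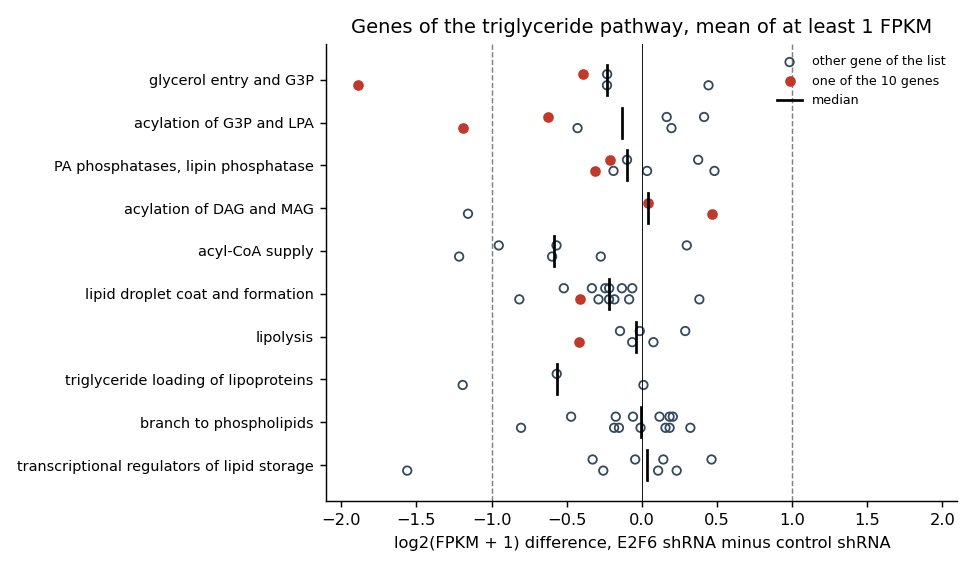
Difference in log2(FPKM + 1), E2F6 shRNA minus control shRNA, for genes of 10 pathway lists with a mean of at least 1 FPKM, with filled circles for the 10 genes, open circles for other genes and vertical bars for list medians. Dashed lines mark a difference of 1 in size, which 6 genes pass on the lower side and 0 on the higher side.

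Transcript GC content moved with the differences. Across 9900 protein-coding genes the Spearman correlation of the difference with GC content was 0.480, a description across genes that share the same libraries. GK, at 40.6% GC, and GPAM, at 41.8%, lay at the AT-rich side of the median of 49.0%, as did GPD2 at 42.6%. AGPAT2, PNPLA2 and DGAT1 were GC-rich, at 65.8%, 64.9% and 63.4%. With the trend removed, GK remained lower by the rule at -1.57, and GPAM came to -0.95, short of it. GPD2 came to -0.20, against -0.39 without the correction. The part of GC content in these differences was not tested. After that correction 1.4% of the 9900 protein-coding genes were lower by the rule.

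Of the GC-rich genes, AGPAT2 and PNPLA2 moved further below 0. AGPAT2 came to -0.76 after the correction, against -0.63 without it, and PNPLA2 to -0.55, against -0.42. DGAT1 stayed above 0 at 0.32, while DGAT2 changed sign to -0.11. The ratio interval of DGAT2 without the correction, 0.784 to 1.37, includes 1, so the counts do not settle its sign. With DGAT2 counted, 9 of the 10 genes were below 0 and the median was -0.41. The share of all genes below 0 after the correction is not given here.

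**Figure D5:**
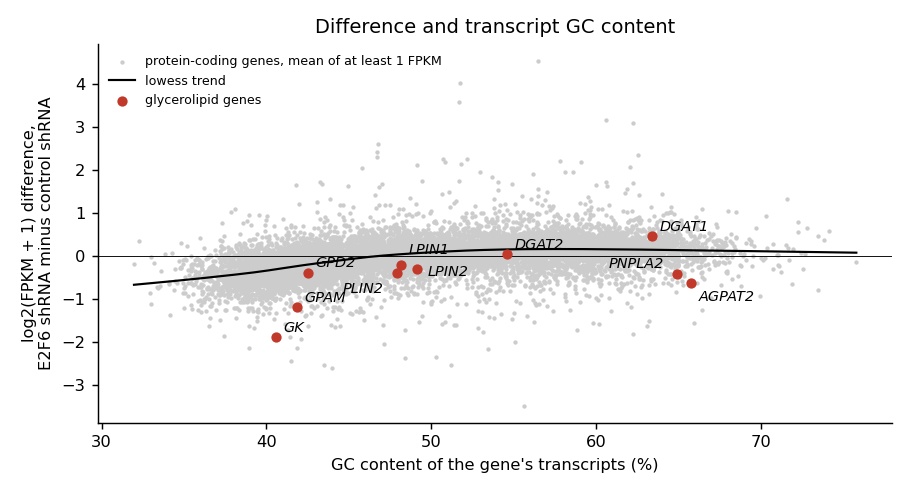
Difference in log2(FPKM + 1), E2F6 shRNA minus control shRNA, against the GC content of the gene's transcripts in %. Grey points are 9900 protein-coding genes, the line is the lowess trend and red points are the 10 genes. GK and GPAM lie at low GC content and below the line, and AGPAT2 and PNPLA2 lie below it at high GC content.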

How the data were processed

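The authors deposited 1 gene table per library. The file headers name only the library, so the unit was read from the deposited values as FPKM. For genes with 1 annotated transcript, FPKM times length came within 0.01 of a whole fragment for 97.9% of 5165 values above 0 in E2F6 shRNA and 97.9% of 5455 in control shRNA. The size of 1 fragment was fitted to these same values. Another unit scaled by length would come out whole as well, so this does not tell FPKM from such a unit. Per the submitters' processing notes, HISAT2 2.0.4 and StringTie 1.3.0 were used with GRCh37; settings, annotation and strand handling were not given in the sources here.

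Of 21227 rows a table, 2 were dropped because a value or a gene was missing. Fragments were estimated from the mean transcript length of GENCODE release 29, which was built on GRCh38 and used for lengths, GC content, chromosomes and overlaps only. The intervals cover counting error only. PCR copies are not independent molecules, so the intervals may be too narrow even for that error. Reads shared with near copies or overlapping genes may be divided unevenly.

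The 10 genes, the pathway lists and the motifs were chosen with earlier results of these data known. From each list the genes past the rule are named, or else the highest and the lowest at a mean of at least 1 FPKM, and other genes were chosen after their values were seen. Alternatives tried were a GC correction by a lowess trend (span 0.3), a 1.5-fold threshold, a pseudocount of 0.1, a minimum mean of 5 FPKM or none, centring, a TMM factor (trims of 30% and 5%), quantile normalization, and protein-coding genes by themselves. The procedures were tested on simulated data. Tools were statsmodels 0.14.6, scipy 1.17.1, matplotlib 3.10.9, pandas 2.3.3 and numpy 2.4.6 under Python 3.11.15.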

Additional observations from a re-analysis of the deposited data

How the results depend on the processing

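Of the 10 genes 2 were lower under a pseudocount of 0.1, no minimum, centring, quantile normalization, the TMM factor and protein-coding genes alone, and 0 were higher under any alternative. The count was 1 at a minimum of 5 FPKM, where GPAM was not tested, and 1 with the GC correction, where GPAM came to -0.95 and GK to -1.57. With a 1.5-fold threshold it was 3, AGPAT2 being added, and 11 of 70 pathway genes were lower, against 6. At that threshold 1080 of all 11574 genes were lower. The pathway count was 4 with the GC correction, without GPAM and ACSL3, and 4 at a minimum of 5 FPKM, where GPAM and MOGAT3 were not tested. It was 7 with a pseudocount of 0.1 and 7 under quantile normalization. The difference of GK ranged from -2.20 with a pseudocount of 0.1 to -1.57, and the median of the 10 genes from -0.43 to -0.37. DGAT2 alone changed sign, with the GC correction. Over all genes, 239 lower and 135 higher became 522 and 269 (pseudocount 0.1), 128 and 67 (minimum 5 FPKM), and 1080 and 585 (1.5-fold threshold), while protein-coding genes alone gave 199 and 115 uncorrected and 139 and 102 with the GC correction. The cause was not tested. No paired analysis was possible because neither group holds more than 1 library. Genes with few fragments, such as LPIN1 and PNPLA2, have wide intervals, and the spread between cultures is unknown.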
